A study of Mus musculus with 8 samples.

Results

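The clustered protocadherin genes of the mouse lie side by side on chromosome 18 as the Pcdha, Pcdhb and Pcdhg families. H3K4me3, the trimethylated form of lysine 4 on histone H3 that sits at active promoters, was examined over them in embryonic brain. The members were all deposited peaks that overlapped chromosome 18 from 37085000 to 38005000 (mm9), a window of 920 kb. The rule placed Pcdha from 37085000 to 37350000, Pcdhb from 37415000 to 37660000 and Pcdhg from 37815000 to 38005000, each as an approximate interval. In all, 40 of the 74232 peaks in the 4 lists were members, and where peaks of different lists overlapped by at least 1 bp they were merged, which gave 14 of the 19714 merged regions of the genome. The regions are numbered 1 to 14 along the chromosome. Membership was set by position alone, but the window was chosen with earlier results of these data known.

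Protocadherins are cell adhesion proteins of the cadherin superfamily, and a neuron carries a combination of them at its surface that helps it tell its own branches from those of other neurons. In the Pcdha and Pcdhg clusters each variable first exon has a promoter of its own and is spliced to exons shared by the whole cluster, whereas each Pcdhb gene is a coding exon without such shared exons. The so-called C-type genes at the far end of Pcdha and Pcdhg are known for broad expression in neurons, and the other genes for being switched on in a cell-by-cell choice.

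The samples were whole brains of mouse embryos at E12.5 (embryonic day) on a mixed strain background. The control group, labelled wild type (WT) and without Cre, had 2 libraries, and the Lats1/2;Nestin-Cre double knockout (dKO) had 2. Lats1 and Lats2 are the Hippo pathway kinases that restrain the coactivators YAP and TAZ, and Nestin-Cre recombines in neural progenitors and their progeny, so that other cells of the brain are expected to keep both genes. Only the dKO carried Cre, so effects of Cre and of the loss of Lats1 and Lats2 cannot be told apart. The title of the series names hypertranscription driven by YAP and TAZ and the number of neural progenitors as its subject. Each brain was processed on its own according to the protocol, but which animal gave which library is not labelled, and p-values therefore measure the spread between these libraries, which may be technical.

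The lists held 17367 to 19486 peaks each and gave no read counts, so the depth behind every peak is unknown. The list of dKO replicate 2 was the shortest and had the lowest median score (230, against 312 to 338.5 in the others). The scale of the score is not named, and it is used here only as a percentile, the share of peaks in the same list with a lower score. Percentiles from lists of different lengths describe rank only, cannot show a change between libraries and were not tested. A peak that is missing from a list means only that none passed the authors' threshold. The gene table used here is of another build, GRCm38.p6, so it served for gene names and their order, no peak was assigned to a gene, and neither brain markers nor Lats1 and Lats2 could be checked.

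H3K4me3 was found at few places in the protocadherin window. The table listed 58 members of the 3 families, 14 of Pcdha, 22 of Pcdhb and 22 of Pcdhg, besides other genes. Yet the 3 cluster intervals together held 8 and 10 peaks in the WT lists, 8 in dKO replicate 1 and 6 in dKO replicate 2. The Pcdhb interval, 245 kb long, held 0 peaks in each of the 4 lists. Pcdha held 3 merged regions and Pcdhg 9, and the remaining 2 lay in the gaps between the clusters. Members of these families resemble each other in sequence. How reads that align to several places were treated is not given in the sources used here, and its part in the missing peaks was not tested.

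**Figure D1:**
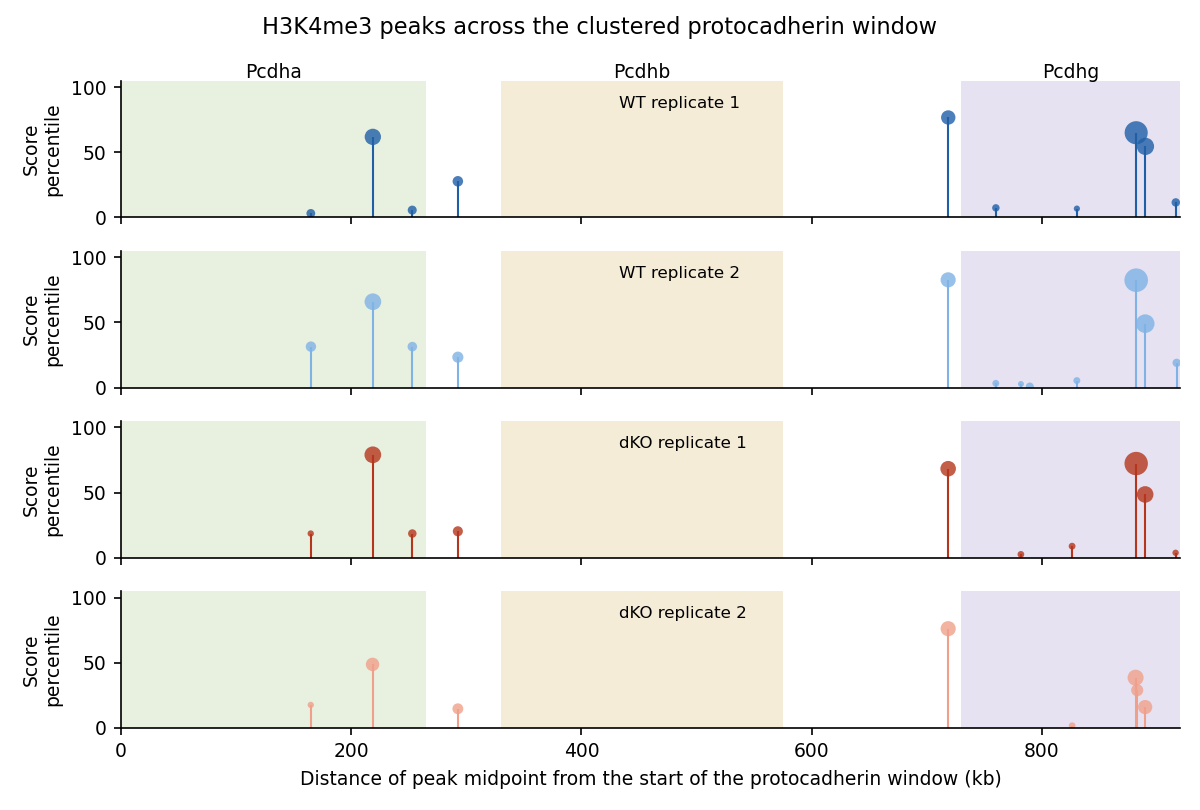
Position and score percentile of each peak in the 4 libraries, against the distance of its midpoint from the start of the window in kb. The area of a point grows with peak width, and shading marks the Pcdha, Pcdhb and Pcdhg intervals. The Pcdhb interval is empty in every library, and the tall points stand in the later part of Pcdha, just before Pcdhg and in the later part of Pcdhg.

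The first part of Pcdha was without a peak as well. Counted from the start of the window, 164.6 kb passed before region 1, whose midpoint lay 62.2% along the Pcdha interval. Regions 2 and 3 followed at 82.5% and 95.5%. In the gene table, the 12 genes Pcdha1 to Pcdha12 come first, and the C-type genes Pcdhac1 and Pcdhac2 come last among the 14. In Pcdhg, the 2 regions present in every list, regions 11 and 12, stood at 80.1% and 84.2% of the interval, and the table lists Pcdhgc3, Pcdhgc4 and Pcdhgc5 at the end of that cluster, after 12 Pcdhga and 7 Pcdhgb genes. The order of genes and the order of peaks are set side by side here without a link between any peak and a gene.

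Region 2 carried the strongest mark in Pcdha. It ran on chromosome 18 from 37302913 to 37304565 (mm9). Its peak measured 1535 and 1601 bp in WT replicates 1 and 2, and 1612 and 1043 bp in dKO replicates 1 and 2. The library dKO replicate 1 was the widest and dKO replicate 2 the narrowest, so the genotypes overlapped. The starts of the 4 peaks differed by 52 bp and the ends by 564 bp, with the peak of dKO replicate 2 ending first, at 37304001. The score percentiles were 61.8 and 65.9 in WT and 79.0 and 48.7 in dKO. By its mean width, 68.2% of the genome's shared regions, those with a peak in all 4 libraries, were narrower.

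Region 1, from 37249606 to 37250228, was short and was narrower in both dKO libraries. Its peak measured 446 and 623 bp in WT replicates 1 and 2 and 233 and 230 bp in dKO replicates 1 and 2. The mean width was 534.5 ± 125 bp for WT against 231.5 ± 2.12 bp for dKO (SD, n = 2 each), and the groups did not overlap. All 4 peaks began within 58 bp of each other, whereas the WT peaks ended at 37250056 and 37250228 and the dKO peaks at 37249860 and 37249893. After centring on the median of each library, the log2 width change was -1.05 (SE 0.27), which was not called (limma, adjusted p = 0.481, unadjusted p = 0.00715). The score percentile was 3.1 and 31.4 in the WT libraries and 18.5 and 17.6 in dKO, so the WT values enclosed those of dKO.

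Region 3, from 37337727 to 37338309, closed the Pcdha interval. It measured 470 and 527 bp in WT replicates 1 and 2 and 417 bp in dKO replicate 1, and dKO replicate 2 had no peak there. The pattern of 3 libraries without dKO replicate 2 was found in 929 regions of the genome, 4.71% of all.

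Between Pcdha and Pcdhb the table listed 0 genes, yet this gap held region 4, with a peak in all 4 libraries. It ran from 37377256 to 37377970 and measured 638 and 715 bp in WT replicates 1 and 2 and 586 and 680 bp in dKO replicates 1 and 2. The genotypes overlapped, with means of 676.5 ± 54.4 and 633 ± 66.5 bp (SD, n = 2 each). The score percentiles ran from 14.6 in dKO replicate 2 to 27.7 in WT replicate 1. The position was tight, with starts within 56 bp and ends within 73 bp.

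After region 4 came the longest stretch of the window without a peak in any list. It measured 425.1 kb, 46.2% of the window, took in the whole Pcdhb interval and ended at region 5. Of the distances between neighbouring regions of the genome, 93.4% were shorter and 1296 were at least as long. The next longest distances within the window, between region ends, were 52.7 kb from region 1 to 2, 49.8 kb from region 10 to 11, 40.6 kb from region 5 to 6 and 38.9 kb from region 3 to 4. The 164.6 kb before region 1 start at the window edge and are not among these distances or the medians below. The median distance between neighbouring midpoints was 34.3 kb in the window, against 37.0 kb across the genome. Over shared regions alone the order was the opposite, with 73.9 kb for the 5 distances in the window and 54.6 kb for the genome. Within the clusters the median was 44.1 kb in Pcdha, from 2 distances, and 14.8 kb in Pcdhg, from 8.

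Region 5, from 37803022 to 37804417, stood in the gap before Pcdhg, where the table lists Slc25a2, Taf7 and Gm8242. Slc25a2 encodes a mitochondrial carrier of the SLC25 family and Taf7 a subunit of the general transcription factor TFIID. The peak measured 1192 and 1318 bp in WT replicates 1 and 2 and 1396 and 1324 bp in dKO replicates 1 and 2. Both dKO widths were above both WT widths, with means of 1255 ± 89.1 and 1360 ± 50.9 bp (SD, n = 2 each), and the margin between WT replicate 2 and dKO replicate 2 was small. The centred log2 change was 0.26 (SE 0.10) and was not called (limma, adjusted p = 0.628, unadjusted p = 0.0392). Its score was high in every list, at percentiles 76.7 and 82.7 in WT and 68.3 and 76.1 in dKO.

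**Figure D2:**
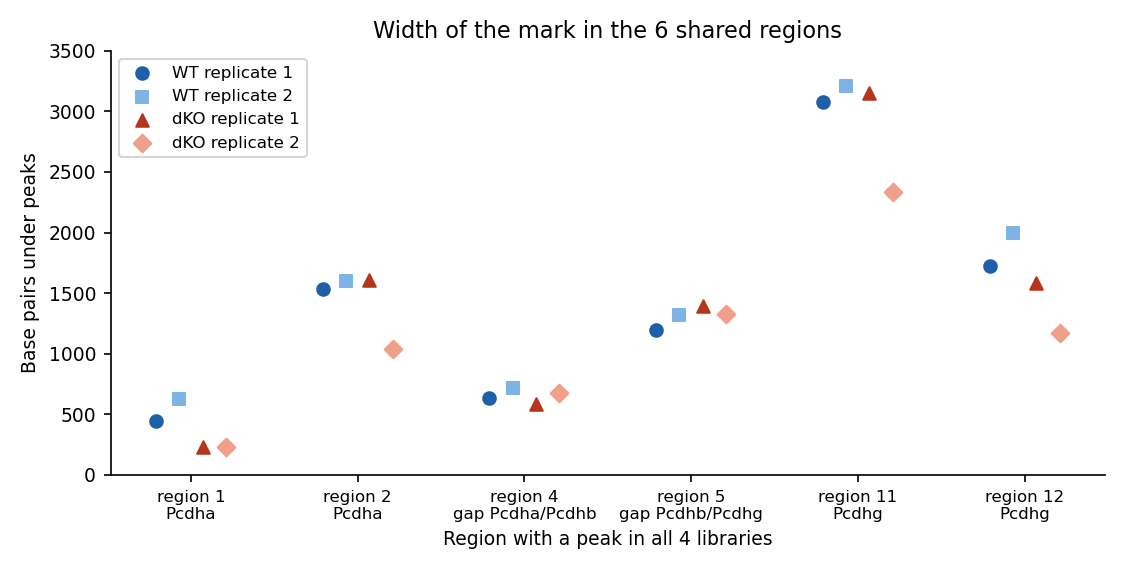
Base pairs under peaks in the 6 regions shared by all 4 libraries, 1 point per library. Region 11 is the widest of the 6 in every library, region 1 is narrower in both dKO libraries, and dKO replicate 2 is the lowest point in regions 1, 2, 11 and 12.

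The widest mark of the window lay in Pcdhg. Region 11, from 37965540 to 37968746, covered 3081 and 3207 bp in WT replicates 1 and 2 and 3155 and 2331 bp in dKO replicates 1 and 2. By mean width, 97.6% of the genome's shared regions were narrower. In 3 libraries it was a continuous peak, and the list of dKO replicate 2 split it into peaks of 1480 and 851 bp with 234 bp between them. It was the 1 shared region of the 6 to be split in any list, where 20.1% of the genome's shared regions were. The share split was 11.4% in dKO replicate 2 and 5.8% to 9.78% in the other lists. The value of dKO replicate 1 lay between the WT values, and the centred log2 change was -0.07 (SE 0.11, limma, adjusted p = 0.881). Its score percentile was 65.0 and 82.4 for WT replicates 1 and 2 and 72.2 for dKO replicate 1. In dKO replicate 2 it was 38.5 for the peak of 1480 bp and 28.9 for that of 851 bp.

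Region 12, from 37973993 to 37976037, began 5246 bp after the end of region 11. It measured 1721 and 1995 bp in WT replicates 1 and 2 and 1585 and 1168 bp in dKO replicates 1 and 2. The means were 1858 ± 194 and 1376.5 ± 295 bp (SD, n = 2 each), 25.9% lower in dKO, and the groups did not overlap. The centred log2 change was -0.30 (SE 0.13) and was not called (limma, adjusted p = 0.659, unadjusted p = 0.0537). The score percentiles were 54.5 and 49.0 for WT, 48.5 for dKO replicate 1 and 15.9 for dKO replicate 2.

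The remaining 7 regions of Pcdhg were each missing from at least 2 lists. Their 12 peaks were 205 to 413 bp wide and stood at score percentiles 0.791 to 19.0. Region 6, from 37845014 to 37845356, had a peak of 320 and 273 bp in WT replicates 1 and 2 and none in dKO. Region 10, from 37915428 to 37915710, likewise had 221 and 276 bp in the WT libraries only. Region 9, from 37911302 to 37911620, had 268 and 259 bp in dKO replicates 1 and 2 and none in WT. It ended 3807 bp before region 10, so a peak found in both dKO libraries and a peak found in both WT libraries lay next to each other. All 3 were weak, at percentiles 3.25 to 7.33 for region 6, 5.36 to 6.76 for region 10 and 1.64 to 8.83 for region 9.

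The other 4 followed no genotype. Region 7, from 37866805 to 37867095, had a peak in WT replicate 2 and dKO replicate 1, of 205 and 261 bp. Region 8, from 37874503 to 37874872, had a peak of 370 bp in WT replicate 2, at percentile 0.791. At the end of the window, region 13, from 38001283 to 38001757, measured 413 bp in WT replicate 1 and 234 bp in dKO replicate 1, and region 14, from 38002110 to 38002504, measured 395 bp in WT replicate 2. These neighbours were 352 bp apart and never occurred in the same list. Region 14 ended 2.50 kb inside the window. The first region beyond it began at 38039481 and was again marked in both WT libraries alone, with 323 and 229 bp, and the last region before the window ended at 36962243, with a peak of 205 bp in WT replicate 2.

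**Figure D3:**
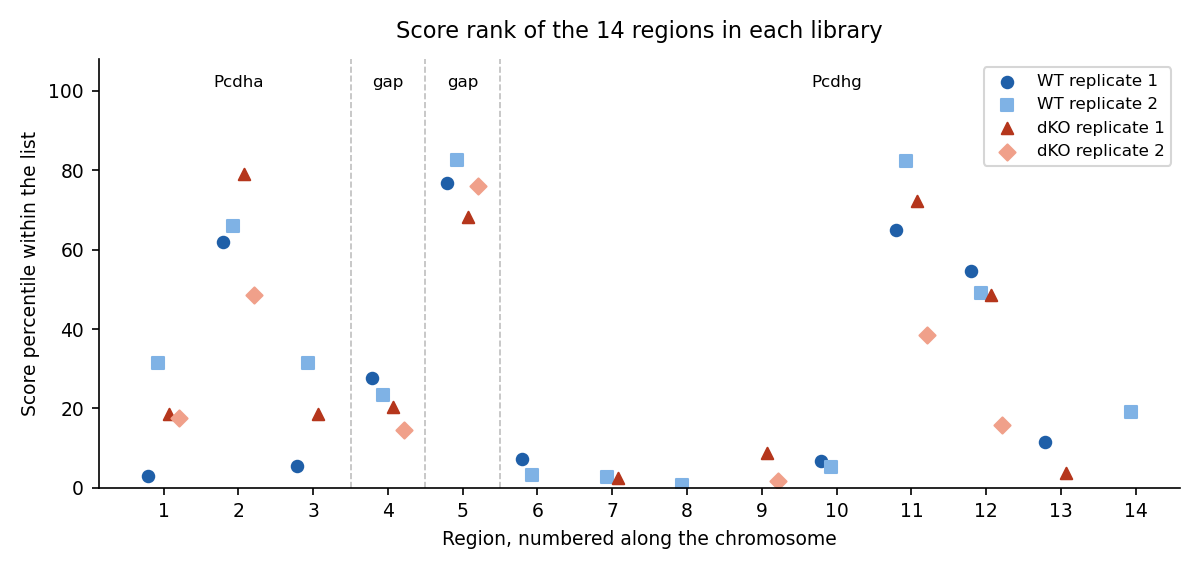
Score percentile of each of the 14 regions within the list of each library (for a region in 2 pieces, the higher piece), with no point where a list has no peak. Regions 2, 5, 11 and 12 hold every point above percentile 32, and regions 6 to 10 all lie below 9.

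Sharing between libraries differed along the window. A peak in all 4 libraries was found in 6 of the 14 regions (42.9%), against 75.8% of the regions of the genome. The count was 2 of 3 in Pcdha, both gap regions, and 2 of 9 in Pcdhg (22.2%). Of the 8 regions that lacked a library, 7 lay in Pcdhg. Regions 6 and 10, 2 of the 14, had a peak in both lists from WT and none from dKO, where 3.83% of all regions had this pattern. Region 9 alone had the reverse, where 0.137% of all regions, 27 in number, had it. With each list limited to the length of the shortest, the first count was 0 and the second 1. That limit takes the most peaks from the WT lists and none from dKO replicate 2, so it does not treat the counts alike. These counts are a description, and no test was run on them.

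Regions that lack a library were narrow and weak across the genome too. For regions in 2 libraries, the median width was 304.5 bp over the genome and 263.5 bp over the 5 in the window, and the median score percentile 9.85 and 5.29. For regions in all 4, the medians were 1137.5 bp over the genome and 1377.6 bp over the 6 in the window, and the score percentiles 60.2 and 52.9. Base pairs shared by 2 libraries, as a fraction of those in either, were 0.7745 for the WT pair and 0.6909 for the dKO pair in the window, against 0.8194 and 0.8108 over the genome. In the window, dKO replicate 1 had 0.7656 with WT replicate 1 and 0.7387 with WT replicate 2, both above the dKO pair. For dKO replicate 2 these fractions were 0.6293 and 0.5729. Within Pcdha the fraction was 0.844 for the WT pair and 0.8331 for WT replicate 1 with dKO replicate 1, and it ran from 0.4596 to 0.5403 for the 3 pairs with dKO replicate 2. Within Pcdhg it was highest for the WT pair (0.7184) and lowest for WT replicate 2 with dKO replicate 2 (0.5013).

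Set against stretches of the same length, the window was not poor in marked regions. The genome was divided into windows of 920 kb, of which 2338 held at least 1 region, with a median of 6. The 14 regions of the protocadherin window exceeded 1928 of these (82.5%). Its 6 regions shared by all 4 lists stood nearer to the middle. Among the 2284 windows with at least 1 shared region, the median was 5 and 56.1% were lower. The few places described above were set against the 58 family members listed. The number of regions per gene was not compared with other windows.

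**Figure D4:**
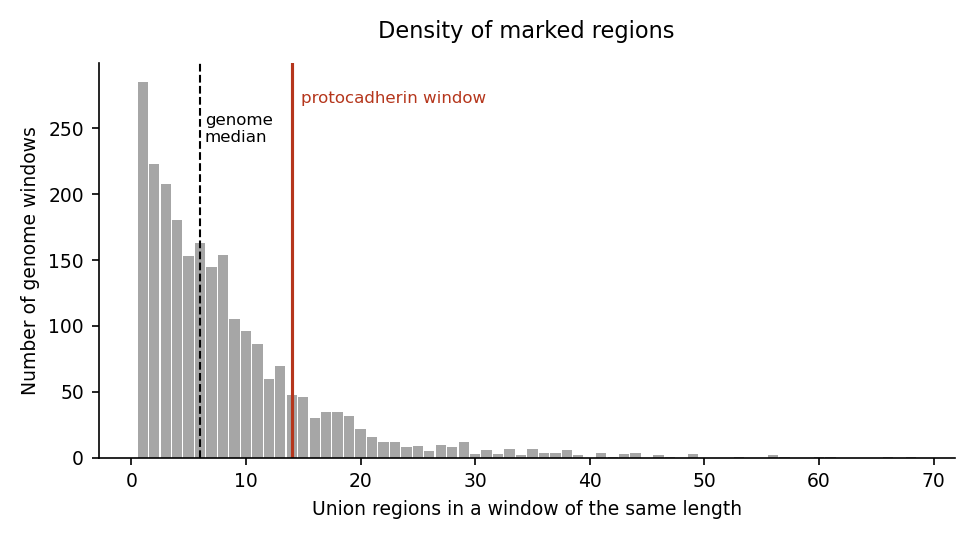
Number of merged regions in each genome window of 920 kb that holds at least 1 (bars), with the protocadherin window (solid line, 14 regions) and the genome median (dashed line, 6 regions). The protocadherin window lies right of the median, on the falling side of the distribution.

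Less sequence lay under peaks in dKO than in WT. Over the window it was 10037 bp and 11505 bp for the WT replicates, 9747 bp for dKO replicate 1 and 7035 bp for dKO replicate 2. The means were 10771 ± 1038 and 8391 ± 1918 bp (SD, n = 2 each), 22.1% lower in dKO with groups that did not overlap, while peaks over the whole genome covered 12.1% less. The exact two-sided permutation test gave p = 0.3333, the smallest p it can give with 2 libraries against 2. In Pcdha the means were 2601 ± 212 and 1767.5 ± 699 bp, and in Pcdhg 6238.5 ± 682 and 4630.5 ± 1234 bp (SD, n = 2 each, exact permutation p = 0.3333 for both). Much of the difference came with dKO replicate 2: without it the window difference went from -2380 to -1024 bp, that of Pcdha from -833.5 to -339 bp and that of Pcdhg from -1608 to -735.5 bp. Without dKO replicate 1 they were -3736, -1328 and -2480.5 bp. With each list limited to the length of the shortest they were -1337, -375.5 and -1023 bp. The genotypes then overlapped in the window and in Pcdha (exact permutation p = 0.6667 for both) but not in Pcdhg (exact permutation p = 0.3333).

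The number of peaks overlapped between genotypes. It was 10 and 12 in WT replicates 1 and 2 and 10 and 8 in dKO replicates 1 and 2 (means 11 ± 1.41 and 9 ± 1.41, SD, n = 2 each, exact permutation p = 0.6667). With each list limited to the length of the shortest, the window difference in number turned from -2 to 1. Pcdha had 3 peaks in every library except dKO replicate 2, with 2, and Pcdhg had 5 and 7 in WT and 5 and 4 in dKO. The median peak width of the window was 554 bp in WT replicate 1, 575 bp in WT replicate 2, 501.5 bp in dKO replicate 1 and 947 bp in dKO replicate 2. The difference in median width between genotypes had an exact permutation p = 1.0 for n = 2 against 2. Of the 8 peaks of dKO replicate 2, 2 were under 500 bp, against 5 in each other library. Its list also counted the 2 pieces of region 11 as separate peaks. The count of short peaks was not tested, nor was the part of either in its high median.

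In the test of width over all 14943 shared regions of the genome, 0 of the 6 shared regions of the window were called wider or narrower in dKO at an adjusted p under 0.05 (limma). Of all shared regions, 0.00669% were called wider and 0% narrower. At an unadjusted p under 0.05 there were 2 in the window, region 1 (narrower) and region 5 (wider), where 7.67% of all shared regions passed in either direction. The median centred log2 change of the 6 was -0.10, against 0.023 over all regions, and 4 of the 6 were below 0, as were 44.6% of all. This tally rests on the centring: without it the medians were -0.24 and -0.12, and 5 of the 6 and 80.0% of all regions were below 0. Also without centring, both dKO widths were below both WT widths in 2 of the 6 regions, 1 and 12, a pattern of 39.1% of all shared regions. The opposite held for region 5 alone, with 4.17% of all.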

How the data were processed

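H3K4me3 was profiled by chromatin immunoprecipitation and sequencing in 4 libraries, and 4 input libraries were not analysed here. Per the submitters' processing notes, MACS2 2.1.1.20160309, BWA 0.7.12-r1039, bedtools, Picard 2.6.0, R 2.14.0 and SAMtools were used with build mm9; role, thresholds and use of input are not given in the sources used here. The authors deposited 1 peak list per library, with positions and a score of unnamed scale, lowest at 13 in every list. Positions are counted from 1.

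Regions, spacing, sharing and ranks were computed with Python 3.11.15, pandas 2.3.3 and numpy 2.4.6, and plots with matplotlib 3.10.9. Number, base pairs and median width were compared by an exact two-sided permutation test. Log2 widths of shared regions, centred on library medians, were fitted with limma 3.58.1 (R 4.3.3, variance trend, Benjamini-Hochberg over all regions). The fit was also run on simulated data with independent noise and no library effects, which does not show that it finds changes in these lists. Named regions were the 3 widest and 2 narrowest of each interval, those with the largest width changes and those of 1 genotype; the others were added afterwards. The window and lists were chosen with earlier results of these data known. Alternatives were equal list lengths, peaks within 1000 bp merged, peaks under 500 bp left out, midpoints, sharing by 50% of the shorter peak, other normalizations, a replicate block and each library left out. No sequence of this locus is printed.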

Additional observations from a re-analysis of the deposited data

How the results depend on the processing

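Unknown depth limits every value here. The dKO mean of base pairs under peaks was below the WT mean in the window, Pcdha and Pcdhg under every alternative run. With a library left out, the window difference ran from -1024 to -3736 bp. That of Pcdha ran from -339 to -1328 bp and that of Pcdhg from -735.5 to -2480.5 bp. Lists of equal length gave -1337, -375.5 and -1023 bp. Without peaks under 500 bp the difference in Pcdhg was -882.5 bp (-1608 bp with all). In both of these settings the genotypes overlapped in the window and in Pcdha (exact permutation p = 0.6667). In Pcdhg they did not (exact permutation p = 0.3333). Pcdhb stayed at 0 peaks. With lists of equal length the difference in number of peaks was 1 in the window and 0.5 in Pcdha and in Pcdhg, and it was 0.5 in Pcdhg without peaks under 500 bp. Left-out libraries gave -3 to -1, -1 to 0 and -2.5 to -0.5, with 0 in Pcdha without dKO replicate 2. The difference in median peak width was 159.75 bp in the window, but -221 with equal lists, -81.25 without peaks under 500 bp; leaving out 1 library gave -63 to 382.5. In Pcdha it was -19.75 bp, but -552.25 with equal lists and 248.5 without peaks under 500 bp; leaving out 1 library gave -129.5 to 90.0. In Pcdhg it was 247.25 bp, but -560.75, -732 and -123.5 to 618 in the same settings. The median score percentile, averaged over libraries, was 22.4 in the window, 22.2 in Pcdha and 12.03 in Pcdhg, and 39.7, 42.2 and 40.8 when peaks under 500 bp were left out. Regions with a peak only in both WT libraries numbered 2, but 0 with equal lists and 0 without peaks under 500 bp. Leaving out 1 library gave 2 to 4 (4 without WT replicate 1). Those only in both dKO libraries numbered 1, and 0 without peaks under 500 bp, which removes them by width alone. Equal lists take the most peaks from the WT lists and none from dKO replicate 2. The limma fit called 0 window regions in all 10 alternatives; the median log2 change was -0.10, and -0.304 to -0.0212 with a library left out. Of 60 alternative log2 changes of the 6 regions, 6 reversed: region 2 ranged from -0.38 to 0.12 over the libraries left out, the high end without dKO replicate 2; region 4 was -0.098 without centring and -0.13 to 0.22 over the libraries left out (-0.000785 without WT replicate 1, -0.13 without dKO replicate 2); region 11 was 0.0089 with nearby peaks merged and -0.23 to 0.084 over the libraries left out, the high end without dKO replicate 2. Other than where stated, the cause was not tested. The replicate block left the median at -0.10 and moved the adjusted p of region 1 from 0.481 to 0.450 (limma); same-numbered libraries share only a number, and their deviations correlated at r = -0.0587 over 14943 regions.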

Other observations

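Regions 1 and 3, at either side of region 2 in Pcdha, had equal scores in 2 lists, 153 each in WT replicate 2 and 87 each in dKO replicate 1. In these lists 173 and 70 peaks in all had that score, and in WT replicate 1 the scores were 34 and 41.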
